A study of Mus musculus with 35 samples.

Results

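The 10 genes described here encode proteins of the piRNA pathway. They were chosen by symbol, as known members of the pathway and not by a rule on measured values, though earlier results of these data were known. All 10 were found among the 55356 genes of the count table and passed the filter on low counts. They are the PIWI genes *Piwil1*, *Piwil2* and *Piwil4*, the helicase genes *Mov10l1*, *Ddx4* and *Tdrd9*, the tudor domain gene *Tdrd1*, and *Mael*, *Pld6* and *Asz1*. RNA was taken from adult C57BL/6J mice, with no treatment or altered allele named in the labels, and sequenced as 29 strand-specific RNA-seq libraries after removal of ribosomal RNA. The 10 groups are female and male brain, cerebellum, heart and colon, the female gonad (ovary) and the male gonad (testis), each with 3 libraries except male heart, which had 2. The labels do not say which libraries came from one animal or from pooled animals, so the p-values measure the spread between libraries, which may be technical. A further 6 Iso-seq runs, in which full-length cDNA is read from end to end, entered only through the transcript models made from them.

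piRNAs are small RNAs of the germline that guide PIWI proteins to transposon transcripts, which are then cut or whose genomic copies are methylated. Long precursor transcripts are handed by the helicase MOV10L1 to the outer surface of mitochondria, where the nuclease PLD6 cuts them and ASZ1 serves as a scaffold, and tudor proteins such as TDRD1 and the helicase DDX4 bring PIWI proteins and their targets together in perinuclear granules. In the mouse the pathway is best known from the testis, where MIWI (*Piwil1*) acts in spermatocytes and round spermatids, MILI (*Piwil2*) in most male germ cells and MIWI2 (*Piwil4*) in fetal male germ cells, and loss of these genes arrests spermatogenesis.

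Libraries held between 11742417 and 36194255 counted reads, and levels are given as FPKM, a gene's CPM (its counts scaled to the sum of all counts in the library) per kilobase of its exons. The labelled tissues carried their markers: 7 spermatid genes summed to between 21500 and 25800 FPKM in testis, 5 granulosa cell genes to between 115 and 204 FPKM in ovary, 4 cardiomyocyte genes to between 9920 and 16900 FPKM in heart, 4 genes of the colon epithelium to between 8010 and 15600 FPKM in colon, 2 neuronal genes to between 739 and 1060 FPKM in brain, and 3 genes of cerebellar granule and Purkinje cells to between 1220 and 2200 FPKM in cerebellum. Not every list set its tissue apart. The 4 spermatogonia genes used summed to 10.5 to 15 FPKM in testis and 10.5 to 13.9 FPKM in brain. The 4 Sertoli cell genes used summed to 85 to 92 FPKM in testis and 74.8 to 108 FPKM in cerebellum. The neuronal genes summed to 415 to 745 FPKM in cerebellum. For oocytes, 10 of 10 markers had counts in ovary, and the 9 other than *Gdf9*, which is counted in every tissue, summed to 11.7, 27.7 and 29.8 FPKM in ovary replicates 1, 2 and 3. The same 9 summed to between 22.7 and 30.6 FPKM in testis and to at most 2.02 FPKM in a somatic library, so they set ovary apart from the somatic tissues and not from testis. Outside testis 3 libraries stood apart by their spermatid transcripts: female colon replicates 1 and 3 and male colon replicate 3 had 106 to 226 spermatid counts each, a summed FPKM of 0.0613% to 0.134% of the testis mean, against 1 to 26 counts, or at most 0.0085%, in the other 23 somatic and ovary libraries. Where leaving out those 3 colon libraries changed which members were called, both results are given. In tissue RNA, fewer cells of a type and less RNA per cell cannot be told apart.

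**Figure D1:**
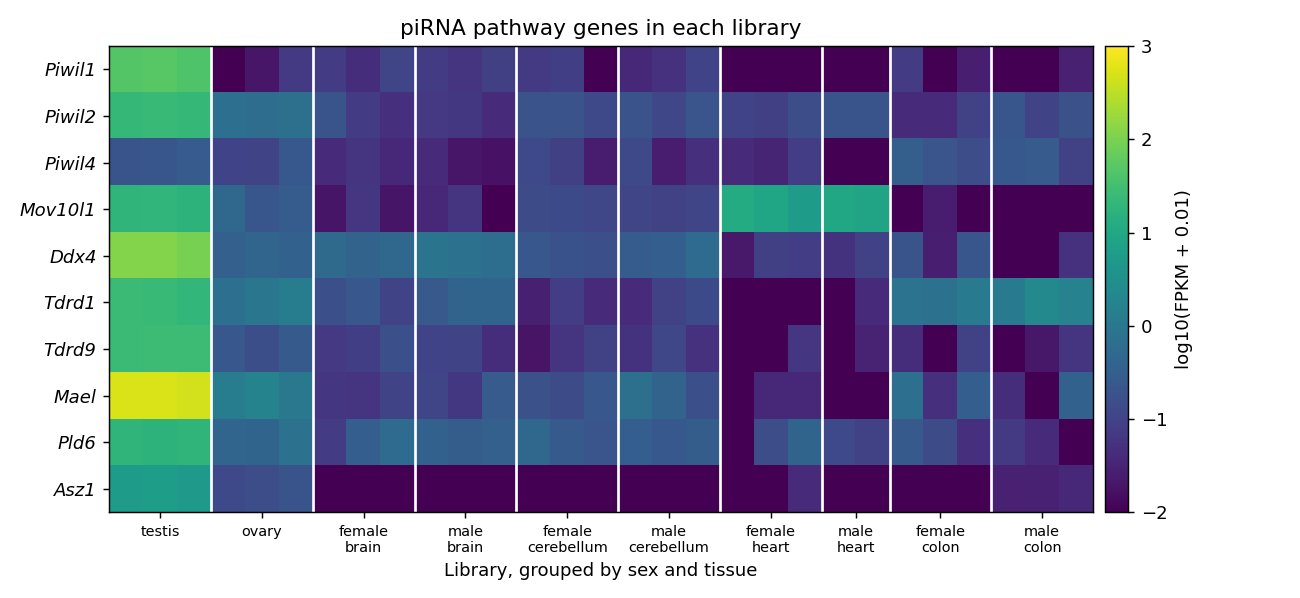
Level of the 10 piRNA pathway genes (rows) in each of the 29 libraries (columns, grouped by sex and tissue), as log10(FPKM + 0.01) on the colour scale. The testis columns are the brightest for every gene but *Piwil4*, *Mov10l1* is bright in the 5 heart libraries (5.54 to 12.1 FPKM) and *Tdrd1* is visible in the 6 colon libraries (0.718 to 2.26 FPKM).

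All 10 genes were called higher in testis than in the male somatic tissues (brain, cerebellum, heart and colon) by edgeR's quasi-likelihood test at an adjusted p under 0.05, against 39.8% of the 29911 genes tested. Adjusted p-values ran from 6.06e-21 for *Ddx4* to 5.66e-06 for *Piwil4*. The sizes of the differences are given from limma on log2 CPM with a prior count of 2, because a gene with no count in a somatic group has no finite edgeR mean there. Both fits average the log level over the groups of a comparison, so a call can differ in direction from the mean FPKM where 1 tissue is far above or below the rest, and such calls are named. The median limma log2 difference of the 10 genes was 7.55, beside 0.04 over all genes tested.

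Of the PIWI genes, *Piwil1* had 46.2, 50.7 and 41.6 FPKM in testis replicates 1, 2 and 3 and at most 0.0901 FPKM in any of the 11 male somatic libraries, a log2 difference of 10.33 ± 0.42 (SE). *Piwil2* had 21.8, 23.3 and 21.4 FPKM in testis and 0.03 to 0.203 FPKM in the male somatic libraries, a log2 difference of 7.49 ± 0.32. Both stood far above every somatic library. *Piwil4* was different: it had 0.189, 0.204 and 0.266 FPKM in testis (29, 34 and 44 counts), and the male somatic libraries reached from 0 to 0.267 FPKM, so the ranges overlapped while the mean was higher by 2.54 ± 0.43 on the log2 scale. In FPKM, *Piwil4* was the lowest of the 10 genes in testis.

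Among the helicases, *Ddx4* (mouse Vasa, a marker of germ cells) had 116, 116 and 95.9 FPKM in testis and at most 0.822 FPKM in male somatic libraries, and its log2 difference was 9.47 ± 0.41. *Tdrd9*, a helicase with a tudor domain that acts with MIWI2, had 25.7, 27.3 and 26.5 FPKM in testis and at most 0.106 FPKM in male somatic libraries, and its log2 difference was 9.30 ± 0.51. *Mov10l1* had 18.4, 19.3 and 16.7 FPKM in testis, and the highest male somatic library, a heart, had 9.52 FPKM. The gap between testis and the highest male somatic library was thus 117-fold for *Ddx4*, 242-fold for *Tdrd9* and 1.75-fold for *Mov10l1*.

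*Mael*, whose product maelstrom is needed for silencing of LINE-1 elements and for piRNA production, was the highest of the 10 genes, with 513, 512 and 456 FPKM in testis and at most 0.682 FPKM in male somatic libraries. Its mean stood at the 99.9th percentile of all genes in testis. *Tdrd1*, the tudor protein that binds methylated arginines of MILI, had 25.4, 24.3 and 20.6 FPKM in testis, and its highest male somatic library, a colon, had 2.26 FPKM. Of the mitochondrial proteins, the nuclease gene *Pld6* had 18.8, 17.3 and 19.08 FPKM in testis and at most 0.342 FPKM in male somatic libraries, and the scaffold gene *Asz1* had 5.65, 6.31 and 5.09 FPKM and at most 0.0265 FPKM. *Asz1* came closest to being silent outside the gonads, with 5 counts in all 23 somatic libraries together (2 in 1 female heart library and 1 in each male colon library) against 1450 counts in the 3 testis libraries.

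In testis the levels thus ran in the order *Mael*, *Ddx4*, *Piwil1*, *Tdrd9*, *Tdrd1*, *Piwil2*, *Pld6*, *Mov10l1*, *Asz1* and *Piwil4*, from 494 ± 32.8 FPKM (SD, n = 3) to 0.22 ± 0.0405 FPKM. Neighbours in that order overlapped in their library ranges for *Tdrd1* and *Piwil2* and for *Pld6* and *Mov10l1*, and in no other case.

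In ovary 6 of the 10 genes were called higher than in female brain, cerebellum, heart and colon, where 21.8% of all genes tested were called higher. The 6 are *Piwil2*, *Tdrd1*, *Tdrd9*, *Mael*, *Ddx4* and *Asz1*, and 0 were called lower, against 20% of all genes. The median limma log2 difference was 1.32, beside −0.04 over all genes. *Mael* had 1.26, 1.72 and 0.996 FPKM in ovary and at most 0.664 FPKM in the 12 female somatic libraries (log2 difference 2.78 ± 0.50, edgeR adjusted p = 4.62e-07). *Tdrd1* had 0.646, 0.912 and 1.22 FPKM, and its female somatic libraries reached 1.19 FPKM, in a colon library (2.70 ± 0.37, edgeR adjusted p = 2.28e-08). *Piwil2* had 0.669, 0.61 and 0.677 FPKM, above the 0.185 FPKM of the highest female somatic library (2.23 ± 0.31, edgeR adjusted p = 1.25e-08).

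*Asz1* had only 6, 10 and 15 counts in the ovary libraries, or 0.118, 0.142 and 0.189 FPKM, but just 2 counts in the 12 female somatic libraries, so that the pooled rate was 60.1 times higher (exact 95% interval 15.3 to 518, counting error only). *Tdrd9* had 19, 18 and 33 counts, or 0.22, 0.151 and 0.246 FPKM, and just overlapped the female somatic libraries, which reached 0.153 FPKM (limma log2 difference 1.72 ± 0.50). *Ddx4*, with 0.328, 0.418 and 0.351 FPKM, was below the highest female brain library at 0.525 FPKM, and its call was weak: the edgeR adjusted p was 0.0424 and limma gave 0.127. Without the 3 colon libraries the edgeR adjusted p for *Ddx4* was 0.000709 with a log2 difference of 1.49, compared with 0.78 ± 0.31 when they were included.

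The other 4 genes were not called higher in ovary. *Mov10l1* had 0.46, 0.206 and 0.278 FPKM there, well below female heart, and the adjusted p was 0.154. *Pld6* had 0.422, 0.4 and 0.751 FPKM and *Piwil4* had 0.0927, 0.097 and 0.225 FPKM, with adjusted p-values of 0.114 and 0.362. *Piwil1* had 0, 1 and 7 counts in the 3 ovary libraries, 8 counts in all, against 40 counts in the 12 female somatic libraries. That is a rate of 0.775 times the somatic rate with an interval from 0.314 to 1.68, so a difference was not detectable at this depth. In the ovary libraries 3 counts of *Piwil1* would be between 0.0262 and 0.0408 FPKM.

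**Figure D2:**
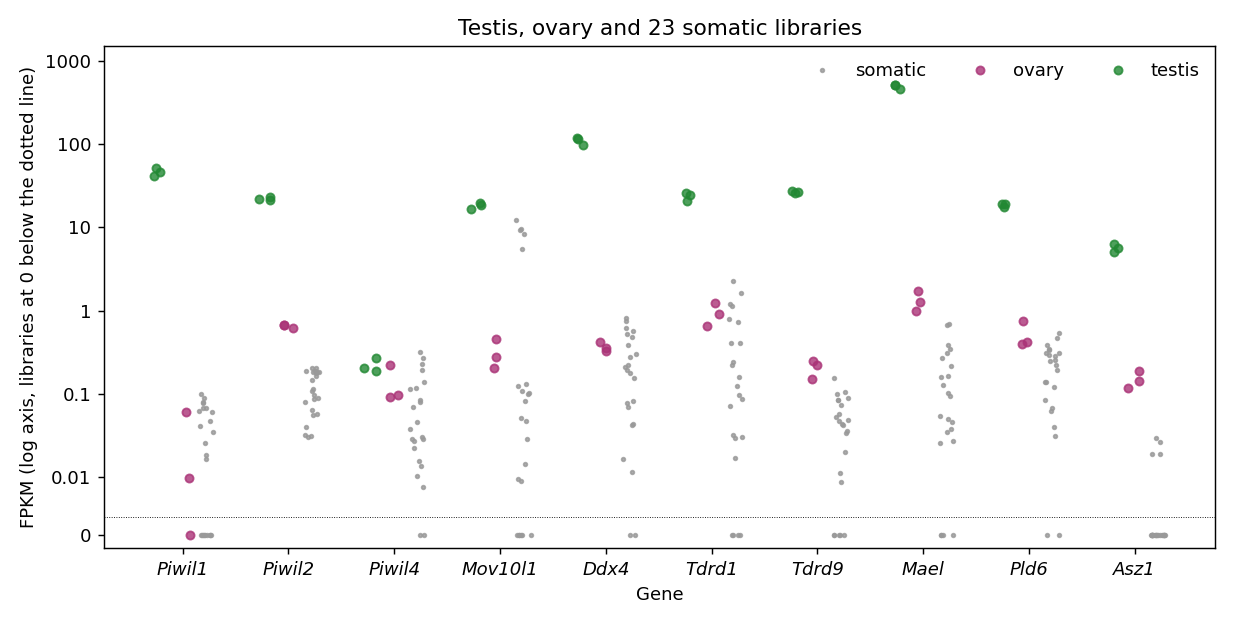
FPKM of each gene in the 3 testis libraries (green), the 3 ovary libraries (purple) and the 23 somatic libraries (grey) on a log axis, with libraries at 0 drawn below the dotted line. Testis stands above every other library for 9 genes, while *Piwil4* overlaps in all 3 classes, and the 5 grey points of *Mov10l1* from 5.54 FPKM upwards are the heart libraries.

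Set directly against each other, testis was higher than ovary for 9 of the 10 genes by edgeR, where 37.8% of all genes tested were called higher in testis. The exception was *Piwil4*, with a log2 difference of 1.27 ± 0.62 (edgeR adjusted p = 0.0760), which limma called (adjusted p = 0.0418). The pooled count rates of the 2 gonads differed most for *Piwil1*, by 1670 times (exact 95% interval 848 to 3870, counting error only), and then for *Mael* by 374 times (318 to 444), *Ddx4* by 296 times (242 to 367) and *Tdrd9* by 129 times (102 to 165). They differed less for *Mov10l1* (60.7 times), *Asz1* (36.8), *Piwil2* (34.1), *Pld6* (33.7) and *Tdrd1* (24.2, interval 21.7 to 27.1). For *Piwil1* 7 of the 8 ovary counts were in replicate 3, and without that library the ratio was 8080, from 1 ovary count (interval 1450 to 319000). For *Piwil4* the ratio was 1.51 (1.08 to 2.12), and 2.32 (1.45 to 3.85) without ovary replicate 3. For the other members no single gonad library moved the ratio by over 1.5 times. These ratios take the sum of counts as library size and depend on that choice. With sizes adjusted by TMM, edgeR's scaling factors, they are larger for every member. *Tdrd1* was then at 27.2 FPKM in testis and 0.697 in ovary, against 23.5 and 0.927. *Mael* was at 572 and 0.989 FPKM, against 494 and 1.33. The counting intervals do not cover this. The order of the genes changed between the gonads, since *Piwil1* was the third highest in testis and the lowest in ovary, and *Piwil2* was the highest PIWI gene in ovary. In ovary the ranges of most neighbours overlapped, and the step from *Piwil4* (0.138 ± 0.0751 FPKM) down to *Piwil1* (0.0237 ± 0.0328 FPKM) was the only one without overlap. With the longest transcript as the length, *Piwil4* was at 0.225 FPKM in ovary, above *Tdrd9* (0.206) and *Asz1* (0.18).

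The excess of the gonad over the somatic tissues was itself compared between the sexes, as an interaction term. edgeR called it larger in males for 7 of the 10 genes, against 22.5% of all genes tested, and gave no usable estimate for *Piwil1*, *Tdrd1* and *Asz1*. These 3 genes have no count in at least 1 somatic group, as do *Piwil4*, *Mov10l1* and *Mael* among the 7. Without the 3 colon libraries 6 of the 7 were called, while *Tdrd9*, then without a count in female colon, had a log2 difference of 7.08 against 8.02 (edgeR adjusted p = 1.0). limma called it larger in males for 10 of 10, against 36.8% of all genes, from a log2 difference of 2.09 ± 0.60 for *Piwil4* to 10.68 ± 0.59 for *Piwil1*. Testis against the male tissues, ovary against the female tissues, testis against ovary and this interaction share libraries and are not independent of each other.

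Since all 10 genes were higher in testis, the sequences around their starts were searched for 3 motifs: the core of the site for MYB proteins, among them A-MYB (*Mybl1*), known as an activator of piRNA pathway genes in spermatocytes (CAACTG or CAGTTG), the E-box CACGTG and the cAMP response element TGACGTCA, of which the last 2 read the same on both strands. Windows of 300 bases, 250 before and 50 from the annotated start, came from RefSeq on GRCm38.p6, and 9 of the 10 members had one, all but *Piwil2*. The 9 genes have 13 windows, since *Tdrd1* has 3 and *Piwil4* and *Pld6* have 2 each. An E-box was found in at least 1 window of 7 of the 9 genes, all but *Piwil4* and *Asz1*, where 8.91% of the 17491 protein-coding genes with a window have one. Counted by window, 8 of the 13 held a box, against 7.15% of all 32851 windows and 11.1% of the windows of protein-coding genes with at least 10 CpG. The sites in the window nearest to the deposited start of each gene are shown with up to 12 bases on each side, 5′ to 3′ on the strand of the gene, with the E-box in capitals, as a feature that 7 members share and that played no part in choosing them.
Piwil1, first site: aaaaccgccaccCACGTGgcagccaatcag
Piwil1, second site: atcagggcccagCACGTGtccacctcgccg
Mov10l1: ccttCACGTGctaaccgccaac
Tdrd1: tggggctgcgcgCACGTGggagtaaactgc
Tdrd9, first site: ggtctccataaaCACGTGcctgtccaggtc
Tdrd9, second site: gcacgaggctccCACGTGcatgcagggcct
Mael: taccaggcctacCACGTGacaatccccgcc
Ddx4: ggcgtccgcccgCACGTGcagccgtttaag
Pld6: ggggcgggctggCACGTGttgggcgcgcaa

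These stretches lie at chr5:128736055-128736084 and chr5:128736080-128736109 (+) for *Piwil1*, chr15:88982744-88982765 (+) for *Mov10l1*, chr19:56826186-56826215 (+) for *Tdrd1*, chr12:111971382-111971411 and chr12:111971452-111971481 (+) for *Tdrd9*, chr1:166238950-166238979 (−) for *Mael*, chr13:112652322-112652351 (−) for *Ddx4* and chr11:59787673-59787702 (−) for *Pld6*. The first base of the E-box was 11 bases before the RefSeq start in *Tdrd1*, 29 in *Ddx4* and 33 in *Pld6*, and further upstream in the others, up to 246 in *Mov10l1*. The MYB core in the letters searched (CAACTG or CAGTTG) was found in 1 of the 9 genes, *Piwil1*, where 14.2% of protein-coding genes hold it in a window. Other spellings of the MYB site were not searched, so these windows may hold sites that were not counted. The cAMP response element was found in 0 of the 9, where 2.54% hold it. Among the other piRNA factors 3 of the 17 genes with a window held an E-box (*Dnmt3l*, *Fkbp6* and *Wdr77*), and among the relatives described next 0 of 8 did. A match of letters is a description and no measured binding site.

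Relatives of the members that work outside the piRNA pathway moved in both directions. The Argonaute genes, whose proteins carry microRNAs, split: *Ago1* was lower in testis than in male somatic tissues (edgeR log2 difference −1.48 ± 0.14, SE), *Ago3* was lower by a smaller amount (−0.73 ± 0.23) and *Ago4* was higher (1.02 ± 0.15). *Mov10*, the broadly expressed paralogue of *Mov10l1*, was higher by 1.36 ± 0.22, with 6.0 FPKM in testis, 15.0 in ovary and 18.9 in colon. *Ddx3x*, a general RNA helicase related to *Ddx4*, had 23.9 FPKM in testis and 48.0 to 115 FPKM in the 4 somatic tissues. Of all 8 relatives tested, 3 were called higher in testis and 4 lower, against 39.8% and 25.9% of all genes, and *Tdrd3* was not called (adjusted p = 0.0714). *Pld3* (0.96 ± 0.15) was the third called higher, with a mean of 17.9 FPKM in testis and 21.5 FPKM in the male somatic libraries, and *Pld4* was lower (−0.64 ± 0.22). *Ago2* is spread over more than 1 counted locus and has no value here.

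**Figure D3:**
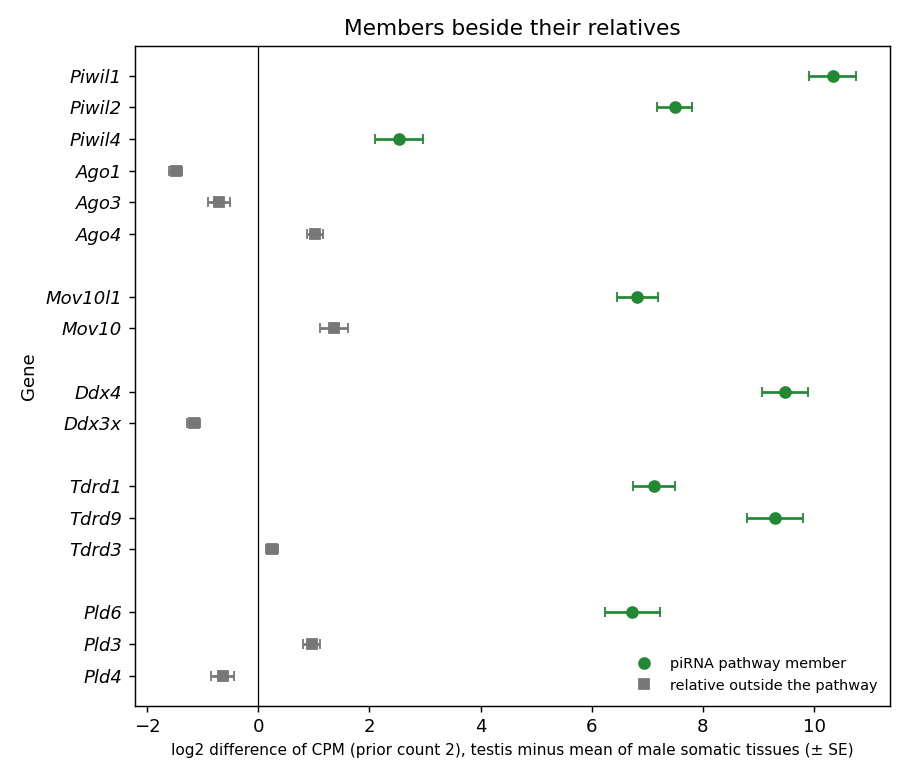
limma log2 difference of CPM (prior count 2) between testis and the mean of the male somatic tissues, with its SE, for members (green circles) and relatives outside the pathway (grey squares), grouped by family. The lowest member is *Piwil4* at 2.54, and all 8 relatives lie to its left.

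A list of 25 other factors of piRNA biology was described in the same way. In testis 22 of the 25 were called higher than in male somatic tissues, 1 was lower and 2 were not called, where 39.8% of all genes were higher and 25.9% lower, with a median limma log2 difference of 4.98. *Tdrkh* was called higher although its mean was 5.64 FPKM in testis and 5.88 FPKM in the male somatic libraries (9.42 in brain and 10.8 in cerebellum). The highest in testis were *Gtsf1* (160 FPKM), a partner of PIWI proteins, *Tdrd6* (134 FPKM), a scaffold of the chromatoid body, *Tcfl5* (99.3 FPKM), a transcription factor of spermatocytes, *Tdrd7* (61.0 FPKM), *Rnf17* (35.6 FPKM) and *Tdrd5* (27.6 FPKM). The 3 not called higher were *Nanos2*, an RNA-binding protein of spermatogonial stem cells, with 0.0726 FPKM in testis and an adjusted p of 0.745, *Prmt5*, the methyltransferase that modifies PIWI proteins, with 18.8 FPKM and an adjusted p of 0.974, and its cofactor *Wdr77*, which was lower in testis (−0.63 ± 0.14). *Prmt5* and *Wdr77* were expressed in every tissue, at 10.8 to 32.8 and 3.08 to 8.63 FPKM.

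In ovary 10 of these 25 were called higher than in female somatic tissues, 3 lower (*Tdrkh*, *Tdrd6* and *Tdrd7*) and 12 not called, where 21.8% of all genes tested were called higher and 20% lower. Of the 10, *Tex19.1* had a lower mean in ovary (0.485 FPKM) than in the female somatic libraries (0.615 FPKM). *Tdrd5*, which acts in piRNA precursor processing, had 11.4 FPKM in ovary and at most 0.482 FPKM as the mean of a somatic tissue, and was the highest there after *Prmt5* (32.8 FPKM). *Gtsf1* had 1.70 FPKM in ovary and *Tex15* 1.86 FPKM. Against ovary, 21 of the 25 were higher in testis, 1 was lower and 3 were not called, where 37.8% of all genes tested were higher and 26.5% lower.

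Outside the gonads 2 members had a tissue whose libraries all stood above every other somatic library. The first was *Mov10l1* in heart, with 12.1, 9.15 and 5.54 FPKM in female and 9.52 and 8.39 FPKM in male libraries, or 1205, 941, 546, 765 and 710 counts. The other 18 somatic libraries had between 0 and 0.131 FPKM and 83 counts together. Heart was at 8.94 ± 2.35 FPKM (SD, n = 5), 49.3% of the testis level, and the mean of the other somatic libraries was 0.0448 FPKM. An exact permutation test over all 33649 choices of 5 of the 23 libraries gave a two-sided p of 2.97e-05, the smallest these choices can give. That p follows from the separation of the heart libraries already described and adds nothing to it. The edgeR adjusted p was 1.04e-18 with a limma log2 difference of 7.96 ± 0.29. Of all genes tested, 23.6% were called higher in heart than in the other somatic tissues.

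No other member shared this. In heart *Piwil1* had no count in any of 5 libraries, *Tdrd1* and *Tdrd9* had 3 and 8 counts in total, *Mael* had 2 and *Asz1* had 2. *Piwil2* was called higher in heart as well (edgeR log2 difference 1.00 ± 0.25, adjusted p = 0.00111), but its 0.138 FPKM there was close to the 0.112 FPKM of the other somatic libraries and the ranges overlapped. Another 5 members were called lower in heart (*Piwil1*, *Piwil4*, *Tdrd1*, *Mael* and *Ddx4*), where 29.5% of all genes tested were, and without the 3 colon libraries 3 of these calls were made, *Piwil1* and *Ddx4* no longer being among them. Of the 7 spermatid markers 5 had a count in heart, *Tnp2* and *Acrv1* had none, and the sum was 0.0476 to 1.1 FPKM per library, on average 0.00196% of the testis level. The 5 spermatocyte markers summed to 17 to 35.8 FPKM, on average 16.2% of testis. Of these, *Sycp1* and *Hormad1* were at 0 in heart, *Spo11* and *Msh4* had 15 and 3 counts, and *Sycp3* had 25 FPKM there against 60.7 FPKM in testis.

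The *Mov10l1* reads were counted on 1 transcript model from Iso-seq with 27 exons and 4102 bases at chr15:88982941-89055149 on the plus strand (GRCm38). GENCODE M21 lists 5 transcripts of the gene, 2 of them with 27 exons and 1 with 8 exons and 1260 bases that starts inside the gene at position 89023613. The counts are per gene, so they do not show which of these was present in heart, and if a shorter transcript was read the FPKM per full length is too low. With TMM-adjusted library sizes the heart mean was 12.8 FPKM.

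The second was *Tdrd1* in colon, with 0.801, 0.718 and 1.19 FPKM in female and 1.15, 2.26 and 1.64 FPKM in male libraries, and 46 to 208 counts each. The other 17 somatic libraries reached 0.407 FPKM, so the ranges did not overlap. The pooled rate was 10.6 times that of the other somatic libraries (exact 95% interval 9.16 to 12.3), and the edgeR adjusted p was 3.73e-13 with a limma log2 difference of 3.94 ± 0.27, in a comparison where 30.6% of all genes were called higher. Colon was above ovary in mean (1.29 ± 0.577 against 0.927 ± 0.289 FPKM), with ranges that overlapped, and at 5.5% of testis.

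The *Tdrd1* level was 5.16% of testis in the 3 colon libraries with spermatid transcripts and 5.86% in the other 3, while the spermatid sum was never above 0.134% of testis in colon. Without the 3 libraries the edgeR adjusted p for *Tdrd1* was 9.75e-10 with a log2 difference of 4.69. Of the spermatid markers *Acrv1* was at 0 in all colon libraries. The source of the *Tdrd1* reads in colon was not tested.

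**Figure D4:**
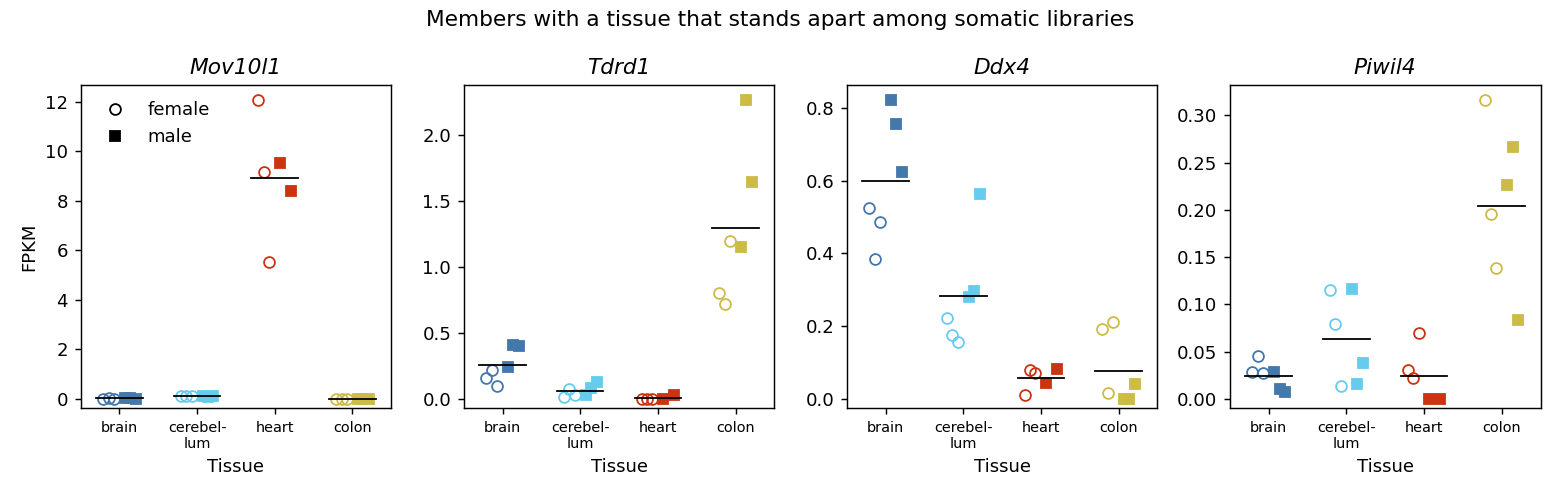
FPKM (linear axes, a scale for each gene) of *Mov10l1*, *Tdrd1*, *Ddx4* and *Piwil4* in the somatic libraries, with open circles for female and filled squares for male libraries and a line at the mean of each tissue. The 5 heart libraries of *Mov10l1* and the 6 colon libraries of *Tdrd1* lie above all others, while brain *Ddx4* and colon *Piwil4* overlap with other tissues.

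*Piwil4* was also higher in colon, with 0.316, 0.196 and 0.139 FPKM in female and 0.226, 0.267 and 0.0836 FPKM in male libraries (edgeR adjusted p = 1.02e-06, limma log2 difference 2.16 ± 0.31). Its colon mean of 0.204 ± 0.0847 FPKM lay beside its testis mean of 0.22 ± 0.0405 FPKM, with ranges that overlapped. The other somatic libraries had at most 0.117 FPKM, and the lowest colon library was below that. Without the 3 colon libraries the adjusted p was 2.39e-05. *Piwil4* shares 137 exon bases with *Gm10706* on the opposite strand, and whether reads were counted by strand is not stated, so reads of the pair cannot be told apart with certainty.

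*Ddx4* was higher in brain than in the other somatic tissues, with 0.525, 0.385 and 0.485 FPKM in female and 0.822, 0.754 and 0.623 FPKM in male libraries (edgeR log2 difference 2.71 ± 0.24, adjusted p = 2.40e-10). The brain mean of 0.599 ± 0.166 FPKM was above the ovary mean of 0.366 ± 0.0471 FPKM and was 0.55% of testis, and 1 male cerebellum library at 0.563 FPKM reached into the brain range. The spermatid sum in brain was 0.00363% of testis. In brain 5 members were called higher (*Piwil1*, *Tdrd1*, *Tdrd9*, *Ddx4* and *Pld6*), where 34.9% of all genes tested were. For *Tdrd1* the mean FPKM lay the other way, at 0.254 in brain and 0.48 in the other somatic libraries, with colon above brain and no count in female heart. In brain 1 member was called lower (*Piwil2*), where 21% of all genes tested were. *Piwil1* was among the 5 with 4 to 11 counts per library, or 0.0658 ± 0.023 FPKM, which is 0.143% of testis.

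In cerebellum 4 members were called higher (*Piwil1*, *Piwil2*, *Mael* and *Ddx4*), where 32.3% of all genes tested were, and limma called 2 of them, *Mael* and *Ddx4*, against 31.3% of all genes. Without the 3 colon libraries edgeR called 5, *Tdrd9* being the added one (adjusted p = 0.0394). edgeR called 0 lower, against 19.5% of all genes. All 5 spermatocyte markers had a count in cerebellum, and their sum was 7.22 to 25 FPKM, on average 8.82% of testis, most of it from *Sycp3* (8.52 FPKM) and *Sycp1* (4.87 FPKM there, 0.0051 in brain), while the spermatid sum was 0.00273% of testis. The part of such transcripts in the cerebellum calls was not tested. *Mael* had 6, 5 and 9 counts in female and 20, 14 and 6 counts in male cerebellum, or 0.288 ± 0.214 FPKM, and its range overlapped with the other tissues. *Pld6* had 0.287 ± 0.0946 FPKM in cerebellum and 0.314 ± 0.15 FPKM in brain, and was called lower in colon, at 0.0866 ± 0.0922 FPKM (adjusted p = 0.00288). In colon 3 members were called lower (*Mov10l1*, *Ddx4* and *Pld6*), where 31.6% of all genes tested were, and without the 3 colon libraries *Tdrd9* was called lower as well (4 members, adjusted p = 0.0193 for *Tdrd9*).

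The 3 colon libraries with spermatid transcripts also held most of the colon counts of several members, all of which are strongly expressed in testis. *Mael* had 26 counts in those 3 and 2 in the other 3 colon libraries, *Ddx4* had 21 and 1, *Tdrd9* had 11 and 1, and *Piwil1* had 5 and 0. As a share of the testis level this was 0.0887% for *Mael*, 0.135% for *Ddx4*, 0.211% for *Tdrd9* and 0.0706% for *Piwil1*, next to the 0.0613% to 0.134% of the spermatid sum in the same libraries. By mean level *Piwil2*, *Piwil4* and *Tdrd1* were at 0.0942, 0.18 and 1.21 FPKM in the 3 and at 0.111, 0.229 and 1.38 FPKM in the others, and *Pld6* was at 0.0965 FPKM in the 3 and 0.0768 FPKM in the others. What brought these transcripts into the 3 libraries was not tested.

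**Figure D5:**
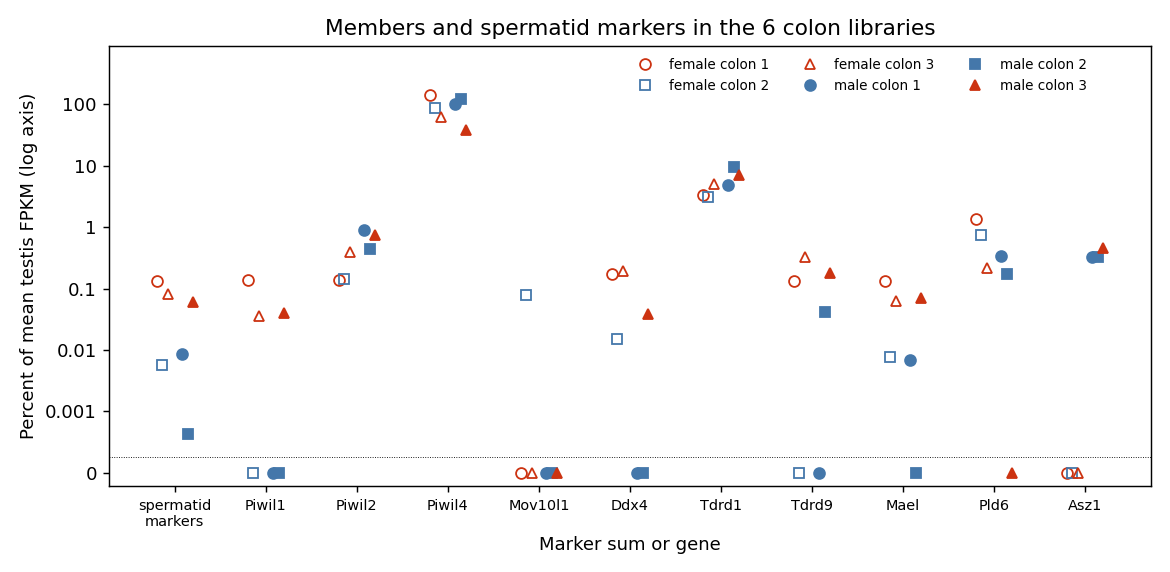
Level in each of the 6 colon libraries as a percent of the testis mean, on a log axis with zeros below the dotted line, for the sum of 7 spermatid markers and for each member. Red symbols are female colon replicates 1 and 3 and male colon replicate 3, which stand above the others for the spermatid sum and for *Piwil1*, *Ddx4*, *Tdrd9* and *Mael*, and not for *Tdrd1* or *Piwil4*.

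Between the sexes 0 of the 10 genes were called in brain, cerebellum, heart or colon by edgeR or limma, where edgeR called 0.0368%, 0.0301%, 0.0635% and 0.324% of all genes and limma 0.104%, 0.0769%, 0.461% and 0.739%. At an unadjusted p under 0.05 edgeR gave 2 members in brain (*Tdrd1* and *Ddx4*), 1 in cerebellum (*Ddx4*), 3 in heart (*Piwil2*, *Piwil4* and *Tdrd1*) and 2 in colon (*Piwil2* and *Ddx4*), where 4.83%, 3.06%, 9.65% and 8.85% of all genes passed that threshold. DESeq2 called 1, *Ddx4* lower in male colon, where it called 0.883% of all genes lower. *Ddx4* in colon had 8, 1 and 11 counts in females and 0, 0 and 2 in males, with an edgeR adjusted p of 0.113, and 19 of the 20 female counts are in the 2 female libraries with spermatid transcripts. The 3 male brain libraries were above the 3 female ones for *Ddx4* and *Tdrd1*, with adjusted p-values of 0.996 and 0.944, so neither passed. *Mov10l1* in heart had 8.93 ± 3.27 FPKM in 3 female and 8.96 ± 0.797 FPKM in 2 male libraries, a log2 difference of male minus female of 0.04 ± 0.39.

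The transcript models deposited for the members differed in number. Iso-seq gave 15 models of *Ddx4*, 8 of *Piwil1*, 5 of *Piwil2*, 4 of *Tdrd9*, 3 of *Tdrd1* and 1 each of *Mov10l1*, *Mael* and *Pld6*, while *Piwil4* and *Asz1*, the genes of lowest level in testis, were counted on ENSEMBL models. Some models began far inside the gene. Of the 8 *Piwil1* models, 3 began within 1000 bases of the most upstream start and 5 further in, the last of them 8219 bases downstream with 13 of up to 22 exons. For *Ddx4* 4 of 15 began further in, for *Tdrd9* 2 of 4, for *Tdrd1* 1 of 3 and for *Piwil2* 1 of 5. Whether such a model is a transcript of its own or the copy of a broken RNA was not tested.

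On GRCm38 the counted loci are chr5:128736106-128755473 (+) for *Piwil1*, chr14:70372480-70429153 (−) for *Piwil2*, chr9:14696230-14740733 (−) for *Piwil4*, chr19:56826231-56870011 (+) for *Tdrd1*, chr12:111971579-112068845 (+) for *Tdrd9*, chr1:166201389-166238740 (−) for *Mael*, chr13:112598335-112652363 (−) for *Ddx4*, chr11:59783898-59787599 (−) for *Pld6* and chr6:18050964-18109061 (−) for *Asz1*. Apart from *Piwil4*, no member shares exon bases with another gene of the annotation.

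The genes whose log2 CPM followed a member most closely over the 29 libraries are given as a description, since the libraries of one tissue are not independent points and many genes are high in testis alone. For *Piwil1* they were *4931429L15Rik* and *1700128F08Rik* (Pearson r = 0.980 and 0.980), for *Mael* they were *Brdt*, a bromodomain protein of spermatocytes and spermatids (r = 0.977), and *Skp2* (0.974), and for *Asz1* *Gm44344* (0.993) and *Mageb4* (0.992). *Piwil1* had 1839 genes at r above 0.95 and *Asz1* had 1301, against 94 for *Mael*, 52 for *Tdrd9*, 40 for *Piwil2*, 28 for *Ddx4*, 6 for *Mov10l1*, 2 for *Pld6*, 1 for *Tdrd1* and 0 for *Piwil4*. For *Piwil2* the closest were *D430040D24Rik* (0.976) and *Glb1l* (0.971), for *Tdrd9* *Dnah7a* (0.964) and *Ube2u* (0.964), for *Ddx4* *Pom121* (0.967) and *Zfp451* (0.966), and for *Pld6* *AI429214* (0.963) and *Tcte2* (0.960). For *Mov10l1* they were *Gm5463* (0.965) and *Mrpl39* (0.964), for *Tdrd1* *Kdm5b* (0.954) and *Scyl3* (0.943), and for *Piwil4* *Neil3* (0.857) and *Primpol* (0.855).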

How the data were processed

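The authors deposited counts of reads per gene for 29 RNA-seq libraries, without normalization, on an annotation of Iso-seq transcript models completed with ENSEMBL genes. The submitters' processing notes name HISAT2 2.0.5, featureCounts 1.6.3 and genome mm10, and whether reads were counted by strand was not found in the sources used here. The deposited map of genes to Iso-seq loci gave each symbol its row, and its rule is not stated. From the counts, FPKM (CPM per kilobase of the exon union) and differences were computed. edgeR 4.0.16 (quasi-likelihood, TMM, filterByExpr) was fitted once over all 29 libraries and 10 groups, with 29911 genes tested and Benjamini-Hochberg adjustment over all of them at 0.05. limma 3.58.1 with a trend on log2 CPM (prior count 2) was added after the data were seen, as were leaving out 3 colon libraries and the gonad count ratios without each library. DESeq2 1.42.0, its size factors, other filters, blocks for replicate number and library code, and leaving out each library were alternatives. Single values were compared with an exact permutation test. Intervals of count ratios are exact binomial at 95%, and they and the floor of 3 counts cover counting error only. The fit was also run on simulated counts that had the same mean profile in every group apart from the changes put in. They do not cover groups without a count or the largest differences given here. No pair of replicates among the 28 held identical values. The 10 members, the lists and the named genes (all members and relatives, the 6 highest other factors in testis, the 3 highest in ovary, those not higher in testis, and the 2 most alike genes) were chosen with earlier results of these data known, and *Tex15*, *Tex19.1*, the 3 factors lower in ovary and the genes with an E-box were named after their values were seen. Promoter windows are RefSeq's. Protein sequences were not used here.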

Additional observations from a re-analysis of the deposited data

Results flagged for a closer look

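The excess of the gonad over the somatic tissues differed between the sexes for 7 of the 10 genes, tested as an interaction in edgeR over all libraries. Of all genes tested, 22.5% were called larger in males. On the log2 scale, testis over male somatic tissues minus ovary over female somatic tissues was 9.74 for *Mael*, 9.16 for *Ddx4*, 8.02 for *Tdrd9*, 7.12 for *Mov10l1*, 6.36 for *Pld6*, 5.31 for *Piwil2* and 3.10 for *Piwil4*. For *Mael*, *Mov10l1* and *Piwil4* a somatic group without a count enters the edgeR value, and limma gave 9.17, 6.49 and 2.09. For *Tdrd9* the limma value was 7.57. The groups held 2 or 3 libraries, too few for a test of single outlying libraries.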

How the results depend on the processing

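All 10 members were called higher in testis than in male somatic tissues under every alternative run, and 9 or 10 were called higher than in ovary. The number called higher in ovary was 5 or 6 when any library was left out and 9 against all 8 somatic groups (24% of all genes were higher there), where *Piwil4*, *Mov10l1* and *Pld6* were added. Groups with no count enter that contrast for *Mov10l1* (male colon) and *Piwil4* (male heart), and the mean of *Mov10l1* was 0.314 FPKM in ovary and 1.98 FPKM over the somatic libraries. *Piwil1* in ovary, not called in any fit, had a log2 difference of 0.35 in edgeR, −0.34 in limma and −0.070 in DESeq2, and −1.64 to 0.80 leaving out 1 library, the lowest without ovary replicate 3. *Ddx4* in ovary was no longer called by limma, with DESeq2 size factors, or when 1 of 8 libraries was left out. In brain 3 members were lower by limma and by DESeq2, against 1. In cerebellum limma called 2 higher, against 4, and 2 lower, against 0, and DESeq2 called 1 lower. The shares of all genes called lower in these fits are not given here, so the lower calls in brain and cerebellum are counts only. Leaving out 1 library gave 2 to 5 members higher in cerebellum (2 without male cerebellum replicate 3) and 3 to 5 lower in heart (3 without male colon replicate 3), and 3 were lower in heart without the 3 colon libraries, where 5 were higher in cerebellum and 4 lower in colon, against 3. Between the sexes in colon, DESeq2 called 1 member lower in males, and leaving out 1 library gave 0 or 1 (*Ddx4*, without female colon replicate 2 or male colon replicate 3). The cause of these changes was not tested. In the gonad interaction *Mov10l1* was no longer called without female colon replicate 2 (log2 difference 6.53 against 7.12), and *Tdrd9* without female heart replicate 3 (6.95 against 8.02) or the 3 colon libraries (7.08), each of which leaves a female group with no count. The heart level of *Mov10l1* above other somatic tissues was 8.89 FPKM, 12.7 with TMM-adjusted library sizes, and 8.11 to 9.74 leaving out 1 heart library. Each of the latter had p = 0.000137 (exact permutation), the smallest that 7315 choices can give. Over all genes, the interaction called 6731 higher, 10181 by DESeq2 and 11015 by limma, and the sex comparisons called 2 to 264 genes in a direction over all settings, against 4 to 70. Replicate numbers did not pair the libraries (median correlation of deviations −0.002 over 126 pairs with the same number, 5 above 0.1), and the fit with a replicate block called the same numbers of members, 10 in testis, 6 in ovary and 9 in testis against ovary. The library code as a block, fitted for the comparisons with somatic tissues, moved 1 count, members higher in cerebellum, from 4 to 5. The longest transcript as length moved every *Piwil4* level by over 1.5 times, in testis from 0.22 to 0.358 FPKM, in ovary from 0.138 to 0.225 and in colon from 0.204 to 0.333. TMM-adjusted library sizes raised the testis level of every member and lowered its ovary level, so that each ratio of the gonads was larger. Depth limits the low members, since 3 counts are 0.0203 to 0.0627 FPKM for *Piwil1* over the somatic libraries.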
